A study of Rattus norvegicus with 6 samples.

Results

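Podocyte genes are described here in the renal cortex of rats: Nphs1, Wt1, Synpo, Podxl, Ptpro, Nes, Actn4 and Cd2ap. The 8 genes were chosen by name, and every array probe whose RefSeq transcript accession maps to one of these symbols was taken, which gave 17 probes of 37822 that were kept, and 8 of 11530 genes tested. All 17 probes were well above background on all 6 arrays, so the filter on dim probes removed no member. The cortex came from male Sprague-Dawley (Crl:CD(SD)) rats, bought at 5 weeks of age. One group of 3 rats was given water and the other group of 3 was given ethylenediamine dihydrochloride, the salt of a small diamine, at 500 mg/kg/day, both for 4 weeks. All rats had the same basal diet, and 1 dose and 1 time were studied. Total RNA of each rat was read on a single 1-colour Agilent array, to ask which transcripts differ in the cortex after the treatment.

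Podocytes are the epithelial cells that wrap the glomerular capillaries. Their interlocking foot processes are joined by the slit diaphragm, a cell junction through which the plasma filtrate passes, and their loss or flattening lets protein into the urine. Nephrin, encoded by Nphs1, spans the slit, and Cd2ap and Actn4 encode proteins that link it to the actin skeleton of the foot process. Wt1 encodes a transcription factor of the mature podocyte. Nphs1, Synpo and Ptpro are largely restricted to podocytes within the kidney, whereas Podxl and Nes are also expressed by vessel cells, and Actn4 and Cd2ap by many cell types including tubules. In whole cortex, fewer podocytes and less RNA per podocyte cannot be told apart.

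No podocyte gene passed the test. By limma with Benjamini-Hochberg adjustment over all 11530 genes, 0 of 8 members had an adjusted p under 0.05 (background 0% of genes tested), and 0 of 8 had an unadjusted p under 0.05 (background 10.4%, of which 4.97% lower and 5.39% higher). Of the members, 7 had a negative log2 fold change and 1 a positive one, where 51.2% of all genes tested were negative. The member median was -0.06 against -0.0036 over all genes. Within slide 1, which holds 1 treated array, 4 of 8 members were negative and the median was -0.019. Without water replicate 1 the median was -0.12, without water replicate 3 it was -0.034 and without ethylenediamine replicates 2 and 3 in turn it was -0.089 and -0.026. Counted by probe, 14 of 17 were negative (51.9% of all probes), and 0 of 17 passed at an adjusted p under 0.05 (0.0106% of all probes). The estimated folds ran from 0.896 (Nphs1) to 1.02 (Ptpro), and the 8 intervals of 95% confidence together ran from 0.691-fold (Podxl) to 1.32-fold (Wt1). Each interval is that of a single gene in the moderated fit. The standard deviation (SD) among the 3 water rats was larger than the difference between groups for 7 of the 8 genes, the exception being Actn4.

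**Figure D1:**
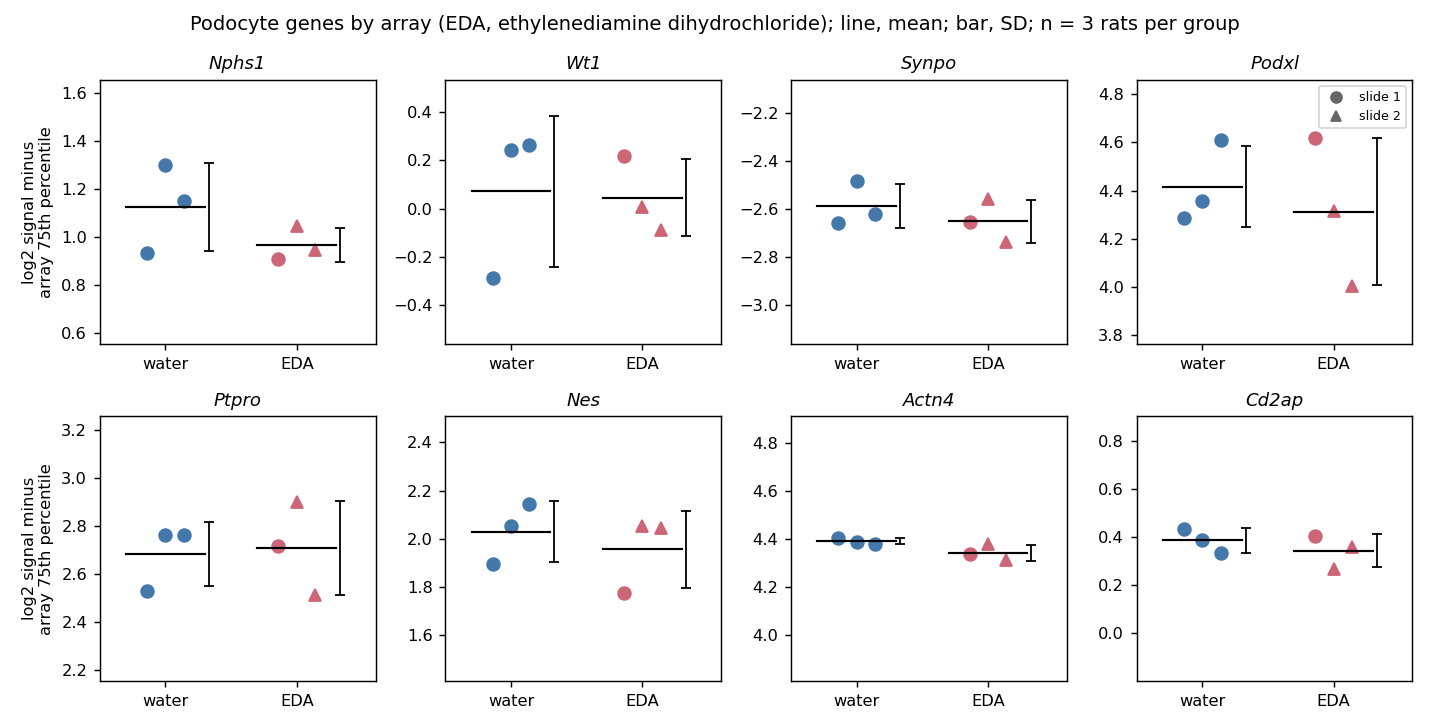
Log2 signal of the brightest probe of each podocyte gene, relative to the array's 75th percentile (vertical axis, the same span in every panel), in water-treated and ethylenediamine-treated rats. Each point is 1 rat, circles are arrays of slide 1 and triangles arrays of slide 2, lines are group means and bars SD (n = 3 per group). The groups overlap for every gene but Actn4, whose groups all but touch and whose 6 values span 0.09.

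The number of probes well above background lay between 35691 and 40843 per array, and no spot was saturated. The 3 water arrays and ethylenediamine replicate 1 lay on slide 1, and ethylenediamine replicates 2 and 3 on slide 2, scanned on another day. On ethylenediamine replicate 1 the dimmest probes, those below background throughout, were 0.80 brighter on the log2 scale than the water mean. Every within-slide value given here is that 1 array against the 3 water arrays. Of the defining transcripts of the labelled tissue, Slc34a1 and Lrp2 of the proximal tubule and Nphs1 and Synpo of podocytes were well above background on all arrays.

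Of the slit diaphragm genes, Nphs1 had the lowest estimate among the 8 members when the brightest probe stood for each gene. With the mean of all kept probes of a gene, its log2 fold change was -0.10, above Wt1 at -0.23 and Nes at -0.19. Values below are log2 signals relative to the array's 75th percentile. The brighter Nphs1 probe (A_44_P533740, NM_022628) read 0.93, 1.30 and 1.15 on water replicates 1 to 3, and 0.91, 1.05 and 0.95 on ethylenediamine replicates 1 to 3. Water replicates 2 and 3 were above all treated arrays, while water replicate 1 lay among them. The log2 fold change was -0.16 ± 0.10 (SE, n = 3 per group; limma adjusted p = 0.641), with a 95% interval of -0.42 to 0.10. Without water replicate 1 it was -0.26, at an unadjusted limma p of 0.0285 and an adjusted p of 0.575, and without water replicate 2 it was -0.07. The other Nphs1 probe (A_64_P162500) read -0.11, 0.43 and 0.24 in water and 0.07, 0.20 and 0.19 in treated cortex, and its log2 fold change was -0.03 ± 0.14 (SE, n = 3 per group). On this probe the treated values lay inside the water range. Within slide 1 the brighter probe stood at -0.22.

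Cd2ap, the adaptor that ties nephrin to actin, was among the steadiest members. Its 1 probe read 0.43, 0.39 and 0.33 in water and 0.40, 0.27 and 0.36 in treated cortex, with overlapping groups. The log2 fold change was -0.04 ± 0.06 (SE, n = 3 per group; limma adjusted p = 0.824), or 0.971-fold with a 95% interval of 0.874 to 1.08. Actn4, which encodes the actin cross-linker alpha-actinin 4 of foot processes and of many other cells, varied less still. Its brighter probe read 4.41, 4.39 and 4.38 in water and 4.34, 4.38 and 4.31 in treated cortex. Here all treated arrays were below all water arrays, but the groups all but touched. The highest treated value was 4.3795 and the lowest water value 4.3811. Groups did not overlap for 1 of 8 members in this direction and 0 of 8 in the other. Of all genes tested, 8.27% did so in this direction, 9.2% in the other and 17.5% in either. The difference was -0.05 ± 0.05 (SE, n = 3 per group; limma adjusted p = 0.75). The second Actn4 probe, at 3.36, 3.31 and 3.45 in water and 3.39, 3.38 and 3.38 in treated cortex, overlapped and gave 0.01. The 95% interval of the brighter Actn4 probe, 0.889- to 1.05-fold, was the narrowest of the 8.

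Synpo encodes synaptopodin, an actin-associated protein of the foot process. Its 1 probe read -2.66, -2.49 and -2.62 in water and -2.65, -2.56 and -2.74 in treated cortex. The ranges overlapped, and the log2 fold change was -0.06 ± 0.08 (SE, n = 3 per group; limma adjusted p = 0.792), or 0.957-fold with a 95% interval of 0.84 to 1.09. Nes encodes nestin, an intermediate filament protein that podocytes keep in the adult kidney. The brightest of its 3 probes (A_44_P1020422) read 1.89, 2.05 and 2.14 in water and 1.77, 2.05 and 2.04 in treated cortex. Ethylenediamine replicate 1 was the lowest array and the other 2 treated arrays lay within the water range. The log2 fold change was -0.07 ± 0.11 (SE, n = 3 per group; limma adjusted p = 0.833), -0.26 within slide 1 and 0.02 without ethylenediamine replicate 1.

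The other Nes probes gave larger differences. Probe A_64_P148321 read 0.78, 0.90 and 0.93 in water and 0.40, 0.70 and 0.66 in treated cortex, so that all 3 treated arrays were below all 3 water arrays. Its log2 fold change was -0.29 ± 0.10 (SE, n = 3 per group), at an adjusted limma p of 0.418 over 37822 probes. The unadjusted limma p was 0.0286, which made it the 1 member probe of 17 that was lower at a p under 0.05, where 5.84% of all probes were. With the brighter Actn4 probe it made 2 of 17 probes whose groups did not overlap, both lower, where 9.57% of all probes were lower without overlap and 18% were in either direction. Over 18 alternatives its estimate stayed negative, from -0.48 (within slide 1) to -0.19, and none passed at an adjusted limma p under 0.05. The filter changes, the robust and intensity-trend models and the replicate block could not change a probe's estimate. The third Nes probe (A_44_P1020428) stood at -0.20 ± 0.12 (SE, n = 3 per group), with overlapping groups. For both of these probes ethylenediamine replicate 1 was the lowest array.

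**Figure D2:**
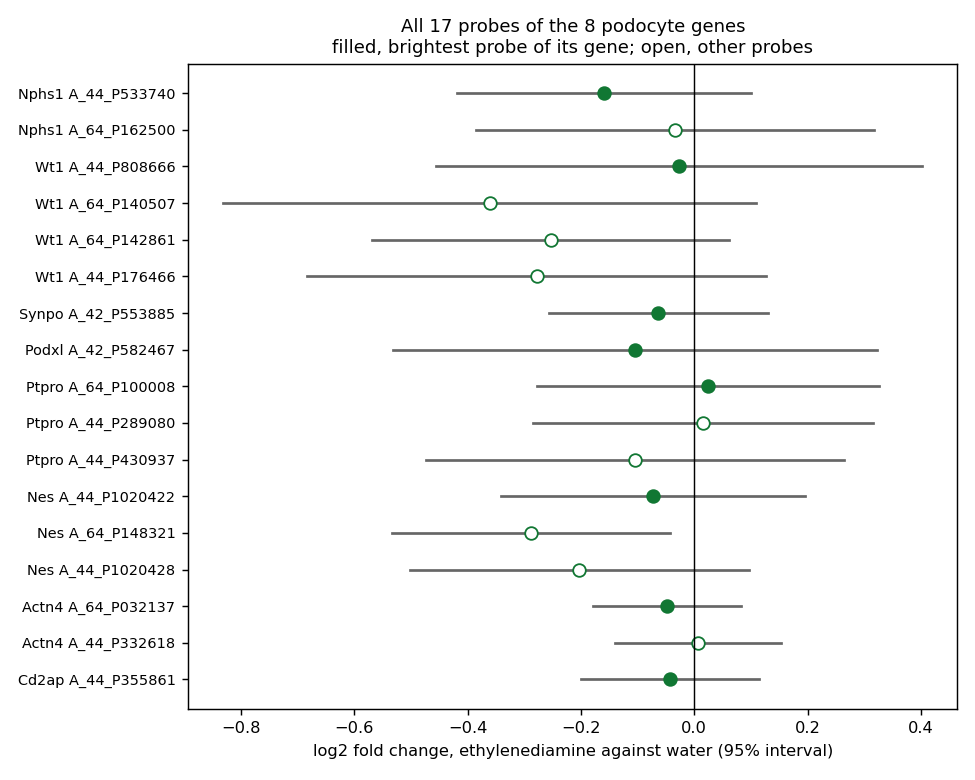
Log2 fold change of each of the 17 probes, ethylenediamine against water (horizontal axis), with its 95% interval from the limma fit over 37822 probes. Filled points are the brightest probe of a gene and open points its other probes. The interval of the Nes probe A_64_P148321, from -0.53 to -0.04, is the 1 that does not include 0, and no probe passed after adjustment.

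Wt1, the transcription factor, had 4 probes that gave unequal estimates. The brightest (A_44_P808666) read -0.29, 0.25 and 0.26 in water and 0.22, 0.01 and -0.09 in treated cortex, and water replicate 1 was the lowest of the 6 arrays. Its log2 fold change was -0.03 ± 0.17 (SE, n = 3 per group; limma adjusted p = 0.969), 0.15 within slide 1 and -0.21 without water replicate 1. The 3 dimmer Wt1 probes had processed intensities between 51.8 and 99.9. A_64_P140507 read -3.51, -3.15 and -3.25 in water and -3.84, -3.89 and -3.27 in treated cortex, a difference of -0.36 ± 0.19 (SE, n = 3 per group). Ethylenediamine replicate 3 lay within the water range on that probe, and the other treated arrays below it. A_64_P142861 stood at -0.25 ± 0.13 and A_44_P176466 at -0.28 ± 0.16 (SE, n = 3 per group), both with overlapping groups. The 3 dim probes were negative under all 18 alternatives, with a lowest adjusted limma p of 0.45. Here too the filter changes, the robust and intensity-trend models and the replicate block could not change the estimates. The dim probes stood at -0.15, -0.13 and -0.19 in the alternative with normexp on median spot signals and an offset of 50. That alternative changed the signal, the background method and the offset together, and an offset narrows the differences of dim probes. The difference between the bright probe and the dim ones was not tested.

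At the podocyte surface, Podxl encodes podocalyxin, the charged sialoprotein that keeps foot processes apart. It had the widest range over the 6 arrays of the 8 members, 0.61, although Wt1 had the slightly larger residual SD. Its 1 probe read 4.29, 4.36 and 4.61 in water and 4.62, 4.31 and 4.005 in treated cortex. Within the treated group, replicate 1 was the highest of all 6 arrays and replicate 3 the lowest. The log2 fold change was -0.10 ± 0.17 (SE, n = 3 per group; limma adjusted p = 0.852), 0.20 within slide 1 and -0.26 for the 2 arrays of slide 2 against water. Without ethylenediamine replicate 3 it was 0.05. Ptpro encodes GLEPP1, a receptor tyrosine phosphatase of the podocyte surface. Its brightest probe read 2.53, 2.76 and 2.76 in water and 2.72, 2.90 and 2.51 in treated cortex, with replicate 3 again the lowest treated array. Its log2 fold change was 0.02 ± 0.12 (SE, n = 3 per group; limma adjusted p = 0.962), negative under median scaling (-0.0047). The other Ptpro probes stood at 0.02 and -0.10, and on all 3 probes ethylenediamine replicate 2 was the highest array and replicate 3 the lowest.

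The sequence just upstream of the annotated start is shown for 3 members. WT1 is known to act on Nphs1 and Podxl, and Cd2ap is the 1 member whose window held a match to either motif searched. The windows are the 250 bases before the RefSeq start in the rat build GRCr8, read 5′ to 3′ on the strand of the gene, and they are chr1:94848011-94848260 (Nphs1, plus strand), chr4:61149132-61149381 (Podxl, minus strand) and chr9:25583725-25583974 (Cd2ap, plus strand). Capitals mark matches to GCGNGGGNG, a core of sites bound by WT1 and EGR factors, on either strand.
Nphs1: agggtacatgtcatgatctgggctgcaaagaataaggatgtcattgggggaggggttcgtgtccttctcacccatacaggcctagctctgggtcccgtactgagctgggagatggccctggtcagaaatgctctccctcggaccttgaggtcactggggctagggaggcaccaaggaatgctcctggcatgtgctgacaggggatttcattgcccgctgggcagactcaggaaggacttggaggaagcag
Podxl: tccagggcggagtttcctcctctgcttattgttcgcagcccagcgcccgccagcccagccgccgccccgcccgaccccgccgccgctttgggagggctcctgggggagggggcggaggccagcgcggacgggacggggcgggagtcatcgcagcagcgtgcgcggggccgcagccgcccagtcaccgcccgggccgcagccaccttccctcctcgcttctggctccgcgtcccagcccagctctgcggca
Cd2ap: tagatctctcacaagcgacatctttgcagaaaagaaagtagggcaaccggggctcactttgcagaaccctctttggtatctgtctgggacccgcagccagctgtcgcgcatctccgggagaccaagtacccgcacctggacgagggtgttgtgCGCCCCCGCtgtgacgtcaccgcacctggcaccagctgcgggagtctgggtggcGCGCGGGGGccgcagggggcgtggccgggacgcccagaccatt
GCGNGGGNG or its reverse complement occurred in 9.4% of 33469 such windows, and TCCTCCTCC, a repeat that WT1 can also bind, on either strand in 2.37%. The 2 motifs are not variants of one another, and no member window held both. Of 7 members in the table, 1 (Cd2ap, 1 match on each strand) held the former and 0 the latter. The Nphs1 window was 57.2% G or C and the Podxl window 76.4%. These are matches of letters in a short window and no measure of binding. Actn4 is named only.

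Within a group, several members were low on the same array. Water replicate 1 was the lowest of the 3 water arrays for 6 of 8 members: Nphs1, Wt1, Synpo, Podxl, Ptpro and Nes. For Actn4 and Cd2ap, the members expressed in many cell types, it was the highest of them. Among treated arrays, ethylenediamine replicate 3 was the lowest for 5 of 8 members, the exceptions being Nphs1, Nes and Cd2ap. The median deviation of the members from the water mean was -0.13, 0.05 and 0.05 on water replicates 1 to 3 and -0.02, -0.04 and -0.16 on ethylenediamine replicates 1 to 3. The medians of 2 treated arrays lay within the range of the water arrays, and that of replicate 3 lay below it. The residual SD within groups ran from 0.03 (Actn4) through 0.06 (Cd2ap) and 0.09 (Synpo) to 0.25 (Podxl and Wt1), where the median over all genes was 0.12.

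**Figure D3:**
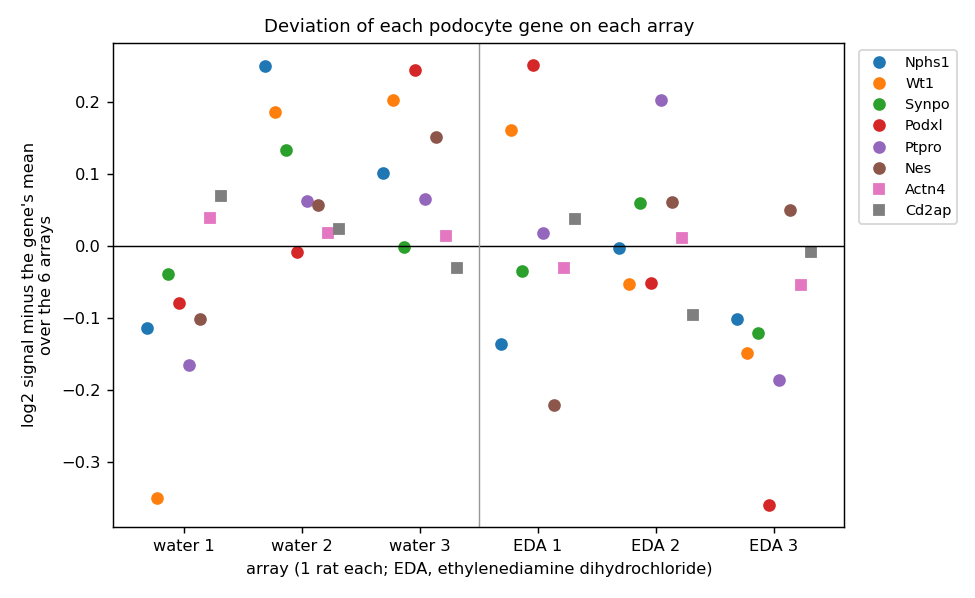
Log2 signal of each podocyte gene minus its mean over the 6 arrays (vertical axis), by array (horizontal axis, 1 rat each), with squares for Actn4 and Cd2ap, which many cell types express, and circles for the other 6 members. On water replicate 1 all circles lie below 0 and both squares above it.

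Other lists were mixed on water replicate 1. For 4 measured podocyte transcription factors the median deviation was -0.19 on water replicate 1, against 0.11 and 0.04 on the other water arrays. Slit diaphragm and signalling genes stood at -0.11 there, against 0.08 and 0.06. Secreted and surface proteins of podocytes stood at -0.11, against 0.08 and 0.01. On the same array the median was 0.036 for foot process cytoskeleton genes, -0.036 for adhesion genes and -0.039 for basement membrane genes. The low values of water replicate 1 were not particular to podocyte genes. Thick limb and distal tubule markers stood at -0.18 there, against 0.12 and 0.14 on water replicates 2 and 3, and smooth muscle and juxtaglomerular markers at -0.27, against 0.02 and 0.21. Endothelial markers had medians of 0.02, 0.05 and -0.06 on the water arrays and -0.23 on ethylenediamine replicate 3, where mesangial markers stood at -0.25 and thick limb and distal tubule markers at -0.22. Proximal tubule markers stood at 0.03 on water replicate 1 and -0.08 on ethylenediamine replicate 3. The part of the glomerular share of each cortex piece in these values was not tested.

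Among 61 further genes of the podocyte and its basement membrane, in 6 lists, 46 were measured. Of these, 30 had a negative and 16 a positive log2 fold change, with a median of -0.04, and 0 passed at an adjusted limma p under 0.05 (background 0%). Before adjustment, 4 of the 46 had a p under 0.05, 2 in each direction, where 10.4% of all genes did. Groups did not overlap for 3 of the 46 that were higher (Arhgdia, Actn1 and Ilk), where 9.2% of all genes tested were. They did not overlap for 3 that were lower (Fyn, Dag1 and Angpt1), where 8.27% of all genes were. Slit diaphragm partners and signalling genes had 10 negative and 2 positive values over 12 measured, with a median of -0.12. Of them Fyn, the kinase that phosphorylates nephrin, read -2.15, -2.00 and -1.96 in water and -2.22, -2.19 and -2.26 in treated cortex, without overlap. Its log2 fold change was -0.19 ± 0.07 (SE, n = 3 per group; limma adjusted p = 0.456), and -0.19 within slide 1. Kirrel1, a nephrin-related adhesion molecule, stood at -0.29 ± 0.30 and was well above background on 2 of 3 treated arrays.

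Foot process cytoskeleton genes were split, with 5 positive and 4 negative values over 9 measured and a median of 0.01. Actn1, the relative of Actn4 found in many cells, read 0.05, -0.08 and 0.04 in water and 0.18, 0.21 and 0.18 in treated cortex. All treated arrays were above all water arrays, and the log2 fold change was 0.19 ± 0.06 (SE, n = 3 per group; limma adjusted p = 0.393), against -0.05 for Actn4. Arhgdia, an inhibitor of small GTPases, stood at 0.16 ± 0.06 (SE, n = 3 per group; limma adjusted p = 0.457), also without overlap, and Arhgap24, which restrains Rac, at -0.04 ± 0.07. Of the transcription factors, 3 of 4 were negative (median -0.04), with Tcf21, needed for glomerular development, at -0.25 ± 0.17. Adhesion genes had a median of -0.02 over 6 genes, with Itgb1, the beta chain of the laminin-binding integrin, at 0.04 ± 0.06 and Ilk, its kinase partner, at 0.13 ± 0.06. Basement membrane genes had a median of 0.00 (0.0042 exactly) over 5 genes, with the laminin chains Lama5 at 0.00 ± 0.07 and Lamb2 at -0.09 ± 0.12.

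Secreted and surface proteins of podocytes had a median of -0.06 over 10 measured genes, 7 of them negative. Angpt1 encodes angiopoietin 1, a ligand of the endothelial receptor Tek that podocytes and other perivascular cells release. It read -0.06, -0.33 and -0.37 in water and -0.70, -0.91 and -0.85 in treated cortex, so that every treated array was below every water array. The log2 fold change was -0.57 ± 0.11 (SE, n = 3 per group; limma adjusted p = 0.329), or 0.672-fold, and -0.45 within slide 1. Its receptor Tek stood at -0.19 ± 0.07 (SE, n = 3 per group; limma adjusted p = 0.474), with treated arrays at -2.42, -2.62 and -2.50 below water arrays at -2.34, -2.38 and -2.25. Vegfa, the growth factor by which podocytes maintain the glomerular endothelium, stood at -0.07 ± 0.07, and Thsd7a, a podocyte membrane protein, at -0.15 ± 0.11. Mme, chosen after its values were seen, encodes neprilysin, a peptidase of podocytes and of the proximal tubule brush border. It read 1.11, 1.70 and 1.91 in water and 1.15, 2.59 and 2.82 in treated cortex, so that the 2 arrays of slide 2 were the highest. Its log2 fold change was 0.61 ± 0.48 (SE, n = 3 per group; limma adjusted p = 0.686), but -0.42 within slide 1, a value that rests on 1 treated array.

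**Figure D4:**
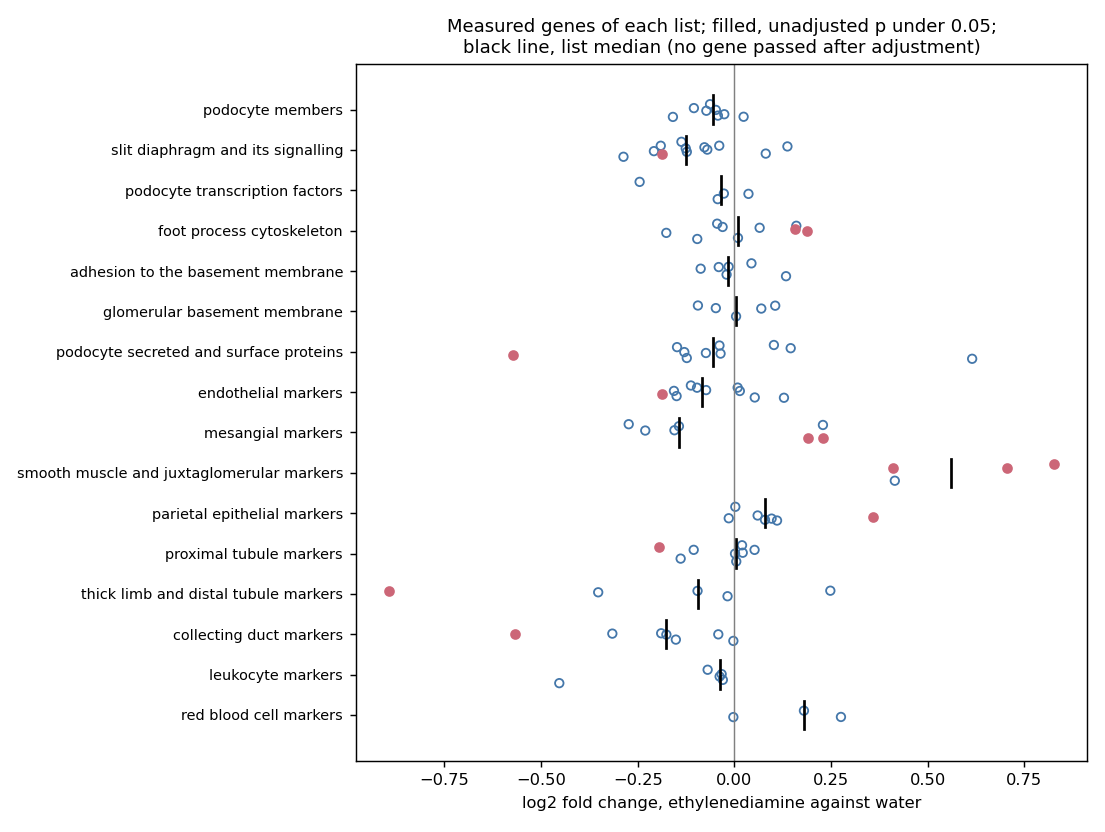
Log2 fold change, ethylenediamine against water (horizontal axis), of every measured gene of the podocyte members, of 6 further podocyte and basement membrane lists and of 9 marker lists of other cortical cells. Each point is 1 gene, filled where the unadjusted limma p was under 0.05, and black lines are list medians, -0.06 for the podocyte members and 0.56 for smooth muscle and juxtaglomerular markers.

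Markers of neighbouring cells are given beside the podocyte values. Endothelial markers had a median of -0.09 over 10 genes, with Pecam1 at -0.11 ± 0.10 and Kdr at -0.15 ± 0.12. Mesangial markers had 3 positive and 4 negative values (median -0.14). The positive ones included the integrin Itga8 at 0.19 ± 0.07 and the filament gene Des at 0.23 ± 0.09, both without overlap. Groups did not overlap for 2 of 7 mesangial and 1 of 10 endothelial markers (Tek), where 17.5% of all genes did so in either direction. The receptor Pdgfrb, at 0.23 ± 0.11, was the remaining positive one, and the 4 negative ones reached -0.27. Parietal epithelial markers had 6 positive values of 7 (median 0.08), with Prom1 at 0.36 ± 0.12, Cldn1 at 0.06 ± 0.15 and Pax2 at 0.11 ± 0.15. Smooth muscle and juxtaglomerular markers had 4 positive values of 4, with Tagln at 0.83 ± 0.10, Myh11 at 0.71 ± 0.18 and Acta2 at 0.41 ± 0.09. Proximal tubule markers had a median of 0.00 (0.0031 exactly), with Slc34a1 at 0.00 ± 0.06 and Lrp2 at -0.19 ± 0.06. Thick limb and distal tubule markers had a median of -0.10, with Calb1 at -0.89 ± 0.15, Umod at 0.25 ± 0.17 and Slc12a1 at -0.02 ± 0.22. Collecting duct markers had 7 negative values of 7 (median -0.18), with Aqp2 at -0.57 ± 0.13 and Aqp3 at -0.19 ± 0.19. Leukocyte markers had 5 negative values of 5, from -0.45 to -0.03 (median -0.04). Of them Ptprc stood at -0.07 ± 0.13 and Cd68 at -0.04 ± 0.14. Red blood cell markers stood at 0.18 over 3 genes, with Hbb at 0.18 ± 0.12 and Alas2 at 0.28 ± 0.24 (SE, n = 3 per group throughout). The remaining red blood cell gene, Slc4a1, was also counted among the collecting duct markers. None of these genes passed by limma at an adjusted p under 0.05, and the part of these cells in the podocyte values was not tested.

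The genes whose 6 values followed those of Nphs1 most closely were Itpr3, Lima1, Dlg2, Ydjc and St14. After each gene was centred on its own mean, their root mean square differences from Nphs1 were 0.032, 0.033, 0.043, 0.045 and 0.047 over the 6 arrays, where the median over all genes was 0.18. For Synpo the closest were Sv2a, Dmtf1, Slc30a9, Map3k2 and Rpsa, at 0.018, 0.023, 0.025, 0.025 and 0.026, against a median of 0.139. No other member was among either set. Each set holds only the nearest few of 11530 genes, so this absence cannot show whether members varied together. Between members, the Pearson correlation over the 6 arrays was highest for Nphs1 and Synpo (r = 0.82), whose root mean square difference was 0.086. Synpo and Ptpro came next (r = 0.74), and the lowest value was that of Ptpro and Cd2ap (r = -0.67). These correlations were not tested.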

How the data were processed

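Total RNA of 6 renal cortices was measured on 1-colour Agilent arrays, 1 per rat. The authors' deposited scanner files hold linear spot intensity from Agilent Feature Extraction (10.7 in the submitters' processing notes, 10.7.1.1 in the headers), with background subtracted and a spatial trend removed per the file headers. The probe grid is rn4, and no scaling between arrays was done. The deposited value table holds the same intensity divided by a value per array: 100% of its values above 0.01 lay within 2% of that ratio.

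Here the log2 intensity minus the 75th percentile of each array was used. Control spots and 22 probes with an outlier flag were left out. Accessions were named through RefSeq tables of the GRCr8 assembly (28194 probes named, 33321 not). A probe was kept if well above background on all 3 arrays of a group (37822 probes), and the brightest probe stood for each of 11530 genes. Groups and numbers were taken from the labels, which describe separate animals. The test was limma's (version 3.58.1, R 4.3.3; lmFit, then eBayes; 4 residual and 1.84 prior degrees of freedom, Benjamini-Hochberg adjustment over all genes or all probes). The number of arrays limits the precision. The script was checked on simulated data.

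The members and gene lists were chosen with earlier results of these data known. The rule for named genes took all members, the first 2 measured genes of each list in written order, every list gene at an unadjusted p under 0.05, and the 5 genes closest to Nphs1 and to Synpo. Some genes that the rule gave are not reported here. Over all genes tested, the deviations of same-numbered rats from their group means showed little correlation (r = -0.0030, 0.022 and -0.0080). The numbers are not stated to pair the rats and were not taken to pair them. The alternatives were other background correction, scaling, filters, probe choices, variance models, the slide and replicate numbers as blocks, slide 1 alone, and leaving out each array.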

Additional observations from a re-analysis of the deposited data

How the results depend on the processing

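No alternative called a podocyte member or a member probe at an adjusted limma p under 0.05. Over 20 alternatives and 8 genes, 144 of 160 estimates kept their sign. This count is no measure of stability, because some alternatives left every member estimate at its main value. These were the filter changes, the robust and intensity-trend models, the replicate block and each probe tested alone. The slide block and slide 1 alone gave the same estimates as each other. Signs turned for Wt1 with normexp on median spot signals and an offset of 50 (0.026), for Ptpro with median scaling (-0.0047) and with the mean of all probes (-0.022), and, both within slide 1 and with a slide block, for Wt1 (0.15), Podxl (0.20) and Cd2ap (0.017). Leaving out 1 array gave -0.21 to 0.069 for Wt1, -0.26 to 0.049 for Podxl, -0.072 to 0.12 for Ptpro and -0.14 to 0.020 for Nes, and without a change of sign -0.11 to -0.012 for Synpo (nearest 0 without water replicate 2) and -0.073 to -0.0059 for Cd2ap (nearest 0 without ethylenediamine replicate 2). The cause was not tested. Without water replicate 1 Nphs1 was the 1 member at an unadjusted p under 0.05 (0 to 1 members over the arrays left out).

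Over all genes, 0 were called in the main setting, 1 with an intensity trend, 10 with the slide as a block, 6 within slide 1 and 0 to 1 without 1 array. With every probe tested alone, 4 of 37822 probes were called, over a set that includes unnamed probes, so this is no count of genes. The member median ran from -0.12 to -0.026 without 1 array and was -0.019 with a slide block. With the replicate block the member median was -0.06, 0 genes were called and no call changed. The share of all genes with a negative value was 51.2%, and 59.7% under median scaling. The normexp alternative was added after the data were seen, on median spot signals, and the planned one on mean spot signals was not run. Slide 2 held treated arrays alone. The dim Wt1 probes lie nearest to background.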
